A study of Mus musculus with 39 samples.

Results

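Translation factors are the proteins that help the ribosome start, extend and end a protein chain. Rows of the expression tables were taken as translation factor mRNAs where the gene symbol began with Eif1 to Eif6 or with Eef1 or Eef2, and Etf1, Gspt1, Pabpc1 and Tpt1 were added, leaving out pseudogene symbols with -ps. This gave 65 mRNAs among the 13230 genes listed for both gradients. RNA had been sequenced from the fractions of 2 sucrose gradients, loaded with liver homogenate from wild-type FVB female mice, with 17 libraries in gradient 1 (fractions 4 to 19 and 21) and 22 in gradient 2 (fractions 3 to 24). The homogenate was made with beads in buffered sucrose without detergent and spun to remove nuclei, so membranes and particles that survive homogenization sediment with the mRNAs attached to them. No treatment or genotype differed between libraries, and the age of the mice and how many gave each homogenate are not given in the sources used here. The replicate of a fraction is the other gradient. Values are in TPM, the share of an mRNA in its library after division by transcript length, and they hold no read counts, so the depth of each library is unknown.

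During initiation, eIF2 brings the initiator tRNA to the small ribosomal subunit and eIF2B reloads eIF2 with GTP. The large eIF3 complex holds the small subunit ready, and eIF4F, made of the cap-binding eIF4E, the scaffold eIF4G and the helicase eIF4A, recruits the mRNA. Elongation is driven by eEF1A, which delivers aminoacyl-tRNA, by the eEF1B subunits, which recharge eEF1A, and by eEF2, which moves the ribosome along. Many mRNAs of elongation factors and ribosomal proteins belong to the TOP class: they start with a C followed by an unbroken run of pyrimidines (C or T in the genomic sequence), and their translation is tuned together by growth signals through mTOR. The comparison made here asks where along the gradient the mRNAs of elongation factors and Pabpc1, the cytoplasmic poly(A)-binding protein, sedimented in relation to those of the initiation factor complexes.

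The TOP class is defined by its first bases, so the annotated starts are shown for the members with a start in the table used whose dense minus light differences were the 5 lowest and the 5 highest, followed by Eif2s3x, which holds the longest run. Each window holds 5 bases before and 25 bases from the annotated start, from RefSeq on GRCm38.p6, in the direction of the gene, with capitals for an unbroken run of at least 7 bases that are each C or T. The first 5 were lower in the dense fractions, the next 5 were higher there, and Eif2s3x was lower.
Tpt1, chr14:75845251-75845280, plus strand: acgacagttccgggggagccgcggacggtg
Eif4ebp2, chr10:61452645-61452674, minus strand: cgggacgaccgggcgagagcaggcgagttg
Eef1b2, chr1:63176826-63176855, plus strand: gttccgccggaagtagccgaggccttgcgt
Eef1a1, chr9:78481700-78481729, minus strand: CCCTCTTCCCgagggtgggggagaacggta
Eif3f, chr7:108934410-108934439, plus strand: gCTCTCTCTCTTTCTCggcaagatggcttc
Eif4a3, chr11:119300019-119300048, minus strand: tacatccggttcccgccgcggcttgcagtt
Eif3c, chr7:126566342-126566371, minus strand: cagagggactcggcagcttagctggttcgt
Eif2b4, chr5:31193115-31193144, minus strand: tgcacgccggaagttgtagtccgctgggga
Eif3b, chr5:140419300-140419329, plus strand: gcggtgacttctgggagtcggaagcagggc
Eif2b2, chr12:85219476-85219505, plus strand: cggaagttgaCCTCTCTCggcccggaagtg
Eif2s3x, chrX:94212627-94212656, minus strand: TTTTCCTTTTCTCTCCgagcaagatggctg
Tpt1 and Eef1b2, which count as TOP mRNAs in general knowledge, hold no such run in these windows, whereas Eif2b2, which was higher in the dense fractions, holds one. Over the 48 members with a start in the table used, 13 (27.1%) held such a run in at least 1 window, against 18.6% of 8868 tested genes and 18.7% of all 27025 genes with a start. It was present in 6 of 14 members that were lower in the dense zone (42.9%), in 5 of 21 that were higher (23.8%) and in 2 of 13 that were not called (15.4%). Among mRNAs of cytosolic ribosomal proteins, 30 of 61 (49.2%) held it. A match describes these letters only.

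For comparing regions, the log2(TPM + 1) values of a gradient were averaged within 3 zones. Fractions 4 to 7 made up the light zone, fractions 10 to 13 the middle zone and fractions 16 to 19 the dense zone. The zones were compared with limma, with Benjamini-Hochberg adjustment over the 11652 genes whose mean TPM reached 1. Of the 65 members, 64 passed this filter, and Eif4e1b, an oocyte relative of the cap-binding protein, with a mean TPM of 0.291, did not. With 2 gradients no exact test can reach 0.05, so calls rest on the spread shared over zones and genes. The median gene differed by −0.41 between the dense and light zones on this scale, and quantile normalization of the libraries moved this median by 0.37, so medians of lists between these zones are also given relative to the median gene, as are single members where this matters most. No member called between the dense and light zones changed sign relative to it, while Eef1d, Eef1e1, Eef1akmt1, Eif2ak2, Eif2ak4, Eif2s2 and Eif4ebp1, which were not called, did. Libraries of the same fraction correlated between gradients with R from 0.943 to 0.974 across genes. More copies of an mRNA and less of all other RNA in a fraction cannot be told apart. All zones of a gradient come from 1 homogenate, so its light and dense libraries hold RNA of the same cells. Sums of cell type markers therefore describe how these mRNAs were spread over fractions, not numbers of cells. All 6 hepatocyte markers were present, with a summed TPM of 25782 to 58753 in the light and 8974 to 21652 in the dense libraries. Summed markers of Kupffer cells (5 of 5 listed) were 112 to 163 TPM in the light and 39.5 to 51.0 TPM in the dense libraries, those of sinusoidal endothelial cells (5 of 5) 45.7 to 89.4 and 27.4 to 43.0 TPM, those of stellate cells (5 of 5) 48.1 to 92.7 and 13.8 to 26.7 TPM, and those of erythroid cells (3 of 5, without Hbb-bs and Hbb-bt) 258 to 496 and 66.4 to 106 TPM. Those of cholangiocytes (4 of 5, without Epcam) were 3.09 to 8.85 and 4.85 to 9.43 TPM. Their part in the results was not tested.

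Relative to the other RNA of a fraction, elongation factor mRNAs other than Eef1d, and Pabpc1, were highest near the top of the gradient. The mRNAs of the initiation complexes, as a group, lay at higher fraction numbers, with a wide spread. The center of sedimentation, the mean fraction number weighted by TPM over the 17 fractions of both gradients, had a median of 8.51 in gradient 1 and 8.82 in gradient 2 for Eef1a1, Eef1b2, Eef1d, Eef1g, Eef2 and Pabpc1. For the 28 mRNAs of eIF2, eIF2B, eIF3 and the eIF4A, eIF4B, eIF4E, eIF4G and eIF4H proteins it was 12.95 and 12.67. The difference was therefore −4.44 and −3.86 fractions (mean −4.15 ± 0.411, SD, n = 2 gradients), and the median gene lay at 11.29 in both gradients. Within the elongation set centers ran from 7.94 to 12.31 and from 7.53 to 11.61, and Eef1d, at the upper end of both ranges, lay denser than the median gene. Within the initiation set centers ran from 9.15 to 14.83 and from 9.09 to 14.56, and 9 of the 28 lay lighter than Eef1d in each gradient. The median profile of the elongation set, each TPM divided by its mean over the gradient, reached 4.13 and 3.95 times the mean at fraction 6. The median profile of the initiation set was much flatter and was highest at fraction 15, at 1.30 and 1.20 times the mean. Over the shared fractions of a gradient the profiles of the elongation set correlated pairwise with a median Pearson's R of 0.97 and 0.95, and those of the initiation set 0.26 and 0.15. These are descriptions over 17 fractions whose neighbors share material. Per the study's methods, each library was made from an equal mass of RNA. The center therefore shows where an mRNA held a larger share of the RNA, not where most of its copies lay.

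**Figure D1:**
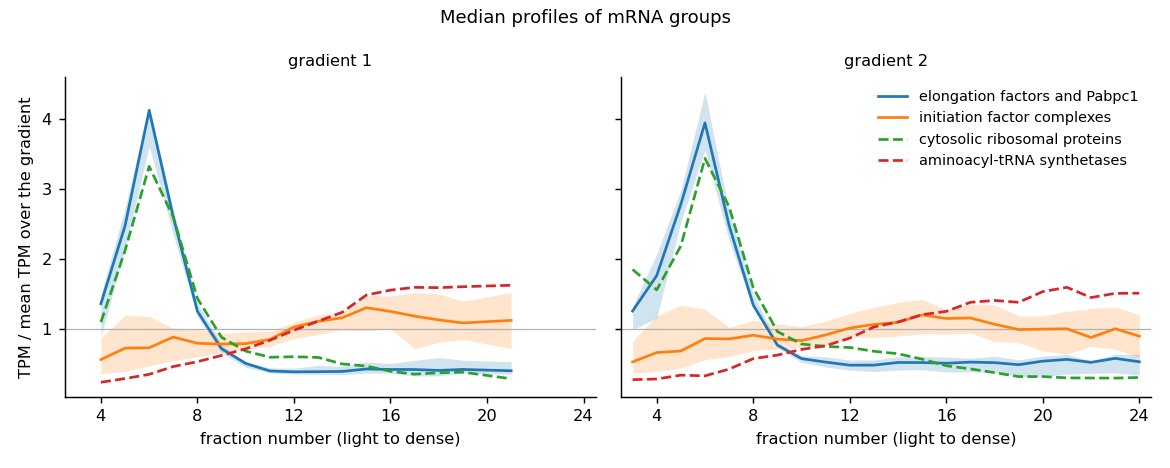
Median relative TPM (TPM divided by the gene's mean over the gradient) against fraction number in gradients 1 and 2 for 4 groups of mRNAs, with bands from the lower to the upper quartile for the elongation and initiation sets. The elongation set peaks at fraction 6, at 4.13 and 3.95 times the mean, close to ribosomal protein mRNAs, while the initiation set is much flatter and aminoacyl-tRNA synthetase mRNAs rise toward the dense end.

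Between the dense and light zones, 23 of 64 members were higher in the dense zone, where 22.4% of all genes were, and 23 were lower, where 39.0% were. None of the elongation set was higher and 5 of 6 were lower, with a median log2 difference of −2.44, or −2.03 relative to the median gene. Of the 28 initiation complex mRNAs 16 were higher and 7 lower, with a median of 0.72, or 1.13 relative to the median gene. Between the middle and light zones, 25 members were higher against 23.7% of all genes and 16 were lower against 23.5%. All 6 mRNAs of the elongation set were lower in this step (median −2.45), and 13 initiation complex mRNAs were higher and 6 lower (median 0.50). Calls for Eif2b1, Eif2b2, Eif2b3, Eif2b4, Eif2s1, Eif3i, Eif2s3x and Eif4a2 in this step were lost without either gradient's light zone. They were also lost without the middle zone of gradient 1, as was that for Eif4g3. The call for Eif3g was lost without the light zone of gradient 1. Between the dense and middle zones, 8 members were higher, against 4.85% of all genes, and 21 were lower, against 22.7%. With the gradient as a replicate block 14 were higher, against 14.3% of all genes in the same fit, and 29 were lower, against 39.5%, and without either gradient's middle zone none was called in limma with adjustment. In this step the elongation set had a median difference of 0.00 and the initiation set one of 0.24, and relative to the median gene, which differed by −0.28, these were 0.28 and 0.52.

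**Figure D2:**
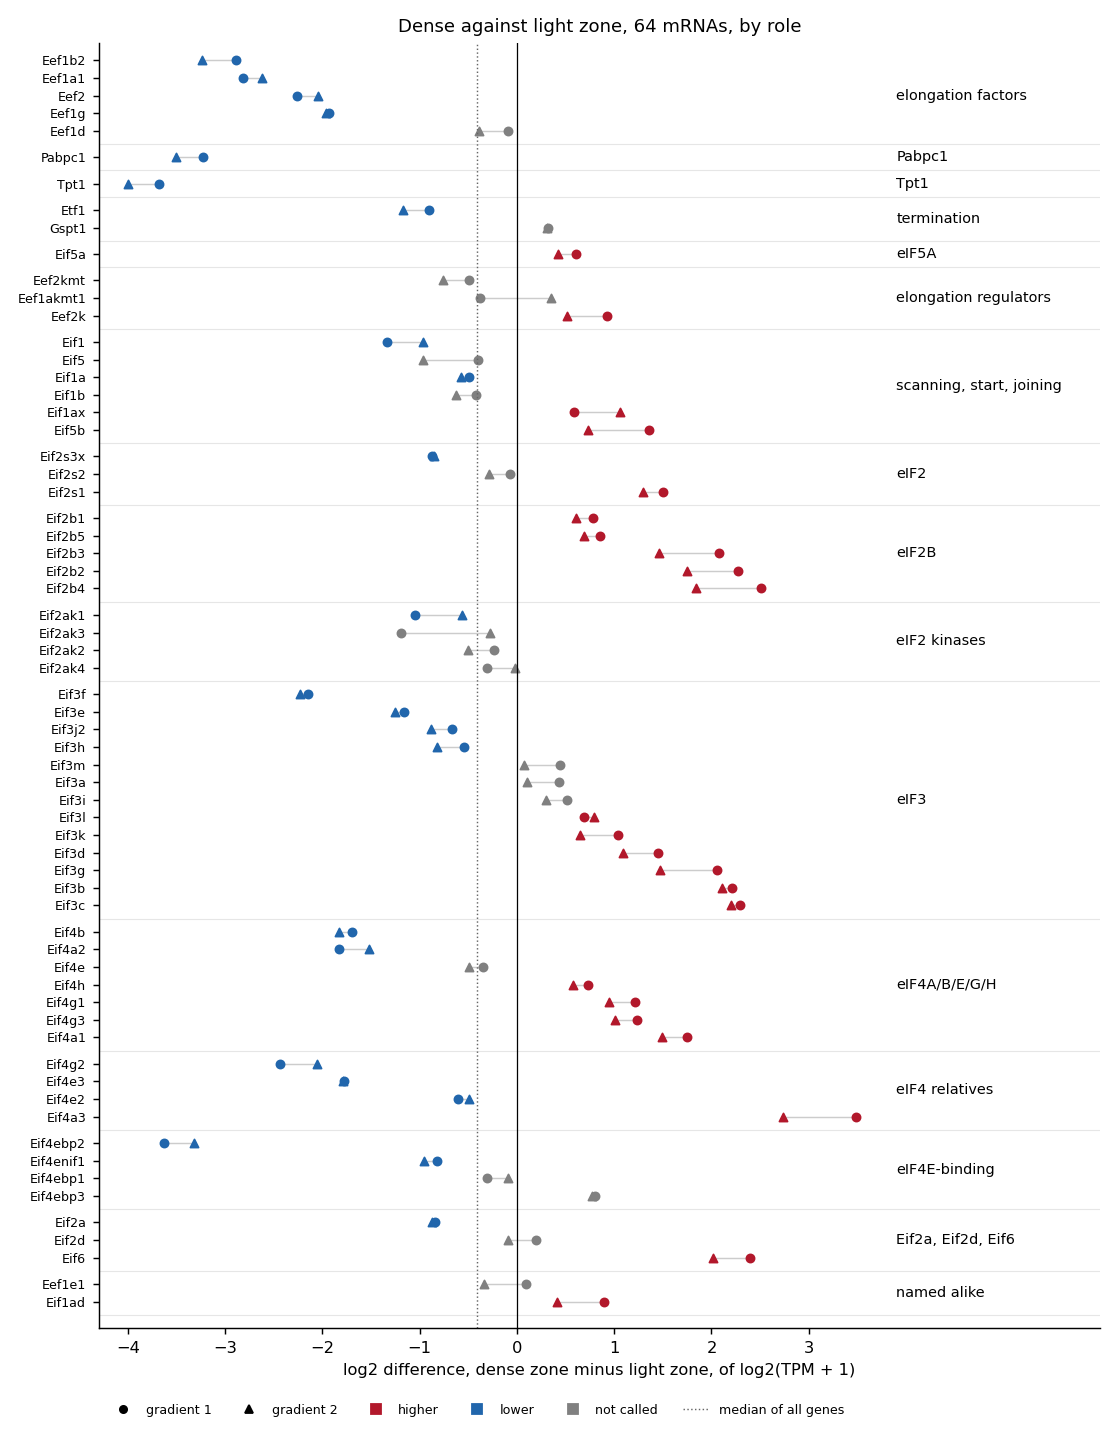
Difference between the dense and light zones on the log2(TPM + 1) scale for 64 mRNAs, grouped by role, with a circle for gradient 1 and a triangle for gradient 2, and colors for the limma call. The dotted line is the median of all genes, at −0.41. Pabpc1, Tpt1 and the elongation factors other than Eef1d lie far to the left, Eef1d lies at −0.24 as a mean of both gradients, all 5 eIF2B mRNAs lie to the right, and eIF3 and eIF4 mRNAs on both sides.

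Eef1a1 encodes the tRNA-delivering factor eEF1A1 and lies at chr9:78478453-78481724 of GRCm38.p6. Its TPM over the 8 light libraries ran from 7050 to 19581 (median 12241), and over the 8 dense libraries from 1514 to 2343 (median 1995). The ranges did not overlap, and every light library was above every dense one. Light over dense TPM was 7.45 in gradient 1 and 6.32 in gradient 2, with a log2 difference of −2.72 ± 0.29 (SE, adjusted p = 0.000848, limma). At fraction 6 this single mRNA made up 1.81% and 1.96% of all TPM, and all 65 members together 4.42% and 4.68%, against 0.984% and 0.986% of TPM in the dense zone. Eef2, the translocase, at chr10:81176631-81182509, had 1038 to 6069 TPM in the light (median 3451) and 571 to 720 TPM (median 634) in the dense libraries. Its lowest light value, at fraction 4 of gradient 1, was still above all dense values. It differed by −2.16 ± 0.18 (adjusted p = 0.000445, limma). Eef1a1 over Eef2 TPM was 3.55 and 4.46 in the light zone and 2.73 and 3.32 in the dense zone.

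The eEF1B exchange complex, whose 3 subunits act together on eEF1A, did not sediment as a unit at the mRNA level. Eef1b2, the α subunit, had 161 to 606 TPM in the light libraries (median 339) and 28.5 to 47.7 TPM (median 41.1) in the dense ones. It differed by −3.06 ± 0.26 (adjusted p = 0.000456, limma), 8.00 and 9.80 times in the 2 gradients. Eef1g, the structural γ subunit, had 330 to 984 TPM (median 631) and 136 to 177 TPM (median 164), a difference of −1.95 ± 0.21 (adjusted p = 0.000898, limma). Neither overlapped between zones. Eef1d, the δ subunit, at chr15:75894796-75909784, behaved differently. It had 77.1 to 219 TPM (median 139) in the light, 58.7 to 83.9 TPM (median 66.2) in the middle and 89.7 to 129 TPM (median 119) in the dense libraries. Light and dense libraries overlapped, and the difference of −0.24 ± 0.15, or 0.17 relative to the median gene, was not called (adjusted p = 0.217, limma). Eef1d was lower in the middle than in the light zone (−0.998 ± 0.15, adjusted p = 0.00455, limma) and higher again in the dense than in the middle zone (0.76 ± 0.15, adjusted p = 0.0187, limma). The last call was lost without either gradient's middle zone, without the dense zone of gradient 1 and with gradient 2 shifted by −1 fraction. Eef1d was the only member with this order, which 13 of the 11652 genes (0.112%) had. Its profile still peaked at fraction 6 in both gradients, at 2.10 and 1.95 times its mean, beside 3.44 and 3.45 times for Eef1g. Eef1b2 over Eef1d TPM accordingly went from 2.15 and 2.79 in the light zone to 0.309 and 0.382 in the dense zone.

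Pabpc1, which coats the poly(A) tail and bridges it to eIF4G, lies at chr15:36595658-36609581. It had 323 to 1107 TPM (median 639) in the light, 67.9 to 116 TPM (median 87.3) in the middle and 57.5 to 68.7 TPM (median 63.3) in the dense libraries. Light libraries were all above the middle and dense ones. The difference was −3.36 ± 0.17 (adjusted p = 0.000307, limma), and light over dense TPM was 10.1 and 12.4. Tpt1 encodes translationally controlled tumor protein, a growth-linked protein that is no factor of the ribosome cycle itself, at chr14:75845256-75848303. It had 3436 to 11998 TPM (median 7234) in the light and 447 to 648 TPM (median 480) in the dense libraries, the largest fall of all members (−3.84 ± 0.21, adjusted p = 0.000307, limma), with a light over dense TPM of 13.7 and 16.3. Tpt1 fell further from the middle to the dense zone (−0.96 ± 0.21, adjusted p = 0.0244, limma), a call lost without either middle or either dense zone, while the differences of 0.05 and −0.05 for Eef1a1 and Eef2 in that step were not called (adjusted p = 0.932 and 0.864, limma).

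**Figure D3:**
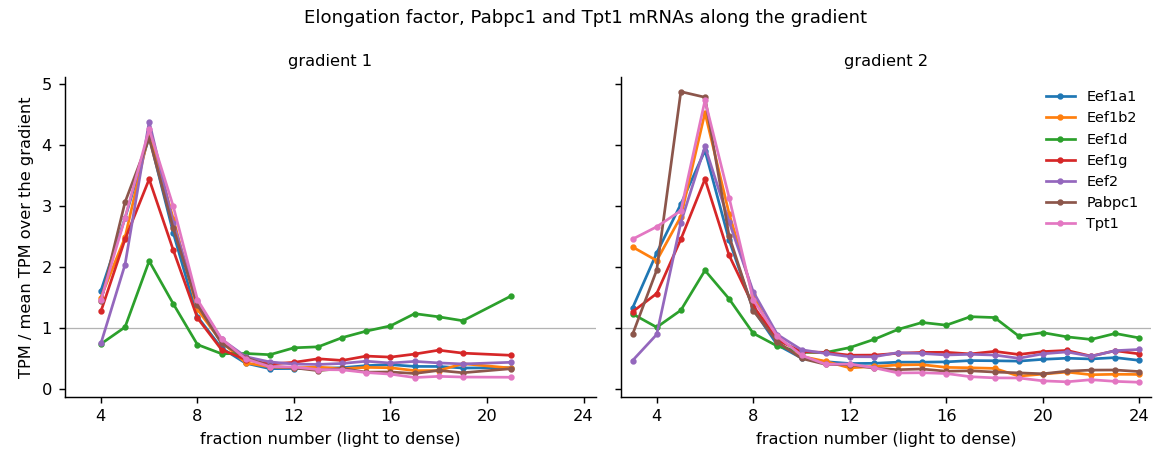
TPM divided by the mean over the gradient, against fraction number, for 5 elongation factor mRNAs, Pabpc1 and Tpt1 in gradients 1 and 2. All but Eef1d drop below their mean by fraction 9 and stay low, whereas Eef1d has a smaller peak at fraction 6 and a second rise to the dense side.

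The termination factors and the remaining elongation mRNAs had other profiles. Etf1, the stop codon reader eRF1, had 79.6 to 131 TPM (median 91.0) in the light, 80.7 to 96.4 TPM (median 86.3) in the middle and 36.6 to 64.8 TPM (median 44.9) in the dense libraries. Its profile peaked at fraction 5 in both gradients, at 124 and 131 TPM, but it was nearly level over the light and middle zones and lower in the dense one (dense minus light −1.04 ± 0.16, adjusted p = 0.00289, limma). Its partner Gspt1, the GTPase eRF3a, had 39.4 to 67.3 TPM (median 44.3) in the light and 54.8 to 67.5 TPM (median 59.3) in the dense libraries. These overlapped and the difference of 0.31 ± 0.15 was not called (adjusted p = 0.127, limma). Eif5a, which carries hypusine and relieves stalls in elongation, had 330 to 533 TPM (median 450) in the light, 832 to 1372 TPM (median 1222) in the middle and 486 to 743 TPM (median 631) in the dense libraries. It was highest in the middle, at fractions 13 and 12, and higher there than in the light zone (1.39 ± 0.16, adjusted p = 0.00196, limma). The eEF2 kinase mRNA Eef2k was higher in the dense zone by 0.72 ± 0.20 (adjusted p = 0.0238, limma), at a mean TPM of 8.71, a call that was lost without either light zone, without either middle zone, without the dense zone of gradient 1, with zones 5 to 6, 11 to 12 and 17 to 18 and with gradient 2 shifted by −1.

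The mRNAs of the eIF3 complex fell on both sides, with 46.2% higher and 30.8% lower in the dense zone beside 22.4% and 39.0% of all genes. Of its 13 subunits and associated factors, Eif3c, Eif3b, Eif3g, Eif3d, Eif3k and Eif3l were higher in the dense than in the light zone, Eif3f, Eif3e, Eif3j2 and Eif3h were lower, and Eif3m, Eif3a and Eif3i were not called. The call for Eif3k was lost without either gradient's light zone. Eif3c and Eif3b encode core subunits. Eif3c, at chr7:126546911-126566366, had 41.3 to 96.6 TPM (median 63.8) in the light and 261 to 342 TPM (median 299) in the dense libraries, a difference of 2.25 ± 0.17 (adjusted p = 0.000355, limma). Eif3b, at chr5:140419305-140443358, had 35.8 to 78.9 TPM (median 48.1) and 209 to 263 TPM (median 232), a difference of 2.16 ± 0.16 (adjusted p = 0.000344, limma). Eif3f, one of the regulatory outer subunits, at chr7:108934415-108941942, had 185 to 438 TPM (median 291) in the light and 52.6 to 77.5 TPM (median 65.1) in the dense libraries. In none of these 3 did the zones overlap. Eif3f differed by −2.19 ± 0.15 (adjusted p = 0.000331, limma), about the size of Eef2, and its profile peaked with those of the elongation factors at fraction 6, at 3.31 and 3.42 times its mean.

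Eif3e, a subunit that binds eIF4G, differed by −1.20 ± 0.21 (adjusted p = 0.0047, limma), with 145 to 253 TPM (median 193) in the light and 52.0 to 101 TPM (median 86.4) in the dense libraries. Eif3h had 149 to 409 TPM (median 288) and 148 to 193 TPM (median 176), which overlapped, and it differed by −0.68 ± 0.16 (adjusted p = 0.0131, limma). Relative to the median gene this was −0.27, and Eif3h was not called without gradient 2 in the light zone. The ratio of Eif3f to Eif3c TPM, whose products are found in equal copies in the complex, was 4.33 and 5.03 in the light zone, 0.376 and 0.506 in the middle zone and 0.196 and 0.229 in the dense zone. The ratio of Eif3e to Eif3b went from 3.09 and 4.16 to 0.311 and 0.407. Over the 13 mRNAs the median pairwise R of profiles was 0.35 and 0.18, and the lowest was −0.78 and −0.84.

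**Figure D4:**
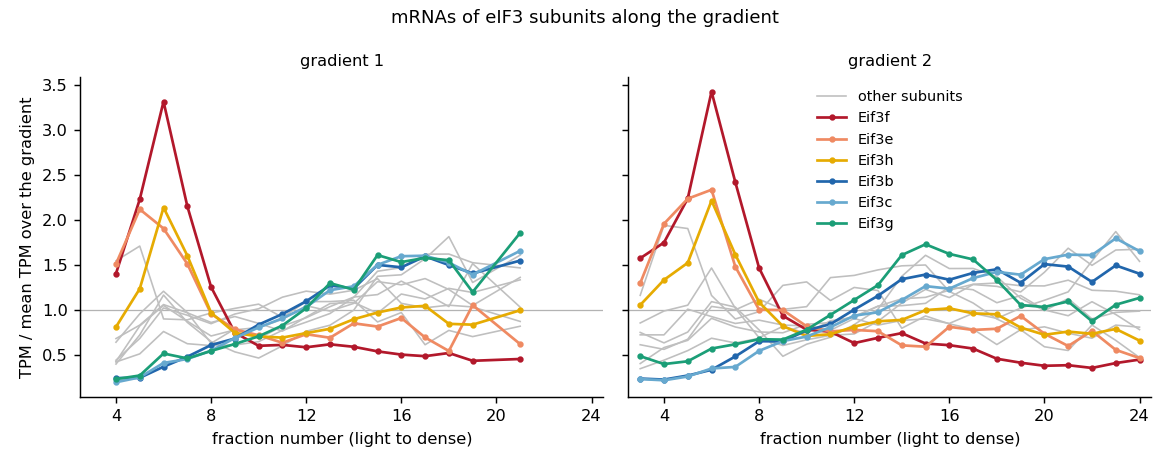
TPM divided by the mean over the gradient, against fraction number, for 13 eIF3 mRNAs in gradients 1 and 2, with 6 subunits in color. Eif3f, Eif3e and Eif3h peak at fraction 5 or 6, after which Eif3f stays low and Eif3h rises again in part, Eif3b and Eif3c climb toward the dense side, and Eif3g is highest at fraction 21 of gradient 1 and fraction 15 of gradient 2.

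The eIF2B mRNAs moved in 1 direction. All 5 were higher in the dense and in the middle zone than in the light zone, where 22.4% and 23.7% of all genes were, with a median difference of 1.77 (dense minus light) or 2.18 relative to the median gene. The largest was Eif2b4, the δ subunit, with 6.86 to 22.4 TPM (median 13.0) in the light and 37.3 to 96.0 TPM (median 63.7) in the dense libraries (2.18 ± 0.40, adjusted p = 0.00543, limma). The smallest was Eif2b1, the α subunit that senses phosphorylated eIF2, with 16.0 to 28.8 TPM (median 18.8) and 25.2 to 43.8 TPM (median 32.0), which overlapped (0.69 ± 0.20, adjusted p = 0.0266, limma). Eif2b5, the catalytic ε subunit, was highest at fraction 12, and its difference of −0.60 from the middle to the dense zone was called (adjusted p = 0.0365, limma) but lost whichever zone mean was left out, under quantile normalization, without the 50 most abundant genes, with zones 5 to 8, 9 to 12 and 15 to 18 and with either shift of gradient 2. The call for Eif2b1 was lost without either gradient's light zone, without the dense zone of gradient 1 and with gradient 2 shifted by −1 fraction, which also ended the call for Eif2b5. In the step from light to middle the calls for Eif2b1, Eif2b2, Eif2b3 and Eif2b4 were lost without either light zone or without the middle zone of gradient 1, those for Eif2b3 and Eif2b4 with zones 5 to 8, 9 to 12 and 15 to 18, and that for Eif2b3 without the middle zone of gradient 2 and with gradient 2 shifted by +1. The 3 subunits of eIF2 itself, the substrate of eIF2B, did not move together. Eif2s1, the α subunit whose phosphorylation halts initiation, had 12.5 to 28.5 TPM (median 18.7) in the light and 42.3 to 63.0 TPM (median 47.4) in the dense libraries (1.40 ± 0.17, adjusted p = 0.00115, limma). Eif2s3x, the GTP-binding γ subunit, had 130 to 302 TPM (median 184) and 90.6 to 122 TPM (median 109), a difference of −0.86 ± 0.16 (adjusted p = 0.00492, limma), or −0.45 relative to the median gene. Its window holds the longest run of C or T among the 48 members with a start, 16 bases, followed by Eif3f with 15. Eif2s2, the β subunit, with a difference of −0.18, was not called. Eif2s3x over Eif2s1 TPM was 11.3 and 10.8 in the light zone and 2.05 and 2.37 in the dense zone. Of the 4 mRNAs of kinases that phosphorylate eIF2α, Eif2ak1 was lower in the dense zone (−0.80 ± 0.18, adjusted p = 0.0115, limma, and −0.39 relative to the median gene), a call lost without the light zone of gradient 1 and with gradient 2 shifted by +1, and Eif2ak2, Eif2ak3 and Eif2ak4 differed by −0.37, −0.73 and −0.16 and were not called.

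Paralogs of the cap-binding machinery took different positions. Eif4a1 and Eif4a2 encode near-identical helicases. Eif4a1 had 181 to 248 TPM (median 221) in the light and 527 to 748 TPM (median 688) in the dense libraries, and was higher by 1.62 ± 0.16 (adjusted p = 0.000649, limma). Eif4a2 had 243 to 344 TPM (median 289) and 66.1 to 113 TPM (median 93.2), and was lower (−1.68 ± 0.24, adjusted p = 0.00215, limma). Each mRNA separated the zones without overlap, in opposite directions, and Eif4a1 over Eif4a2 TPM went from 0.769 and 0.749 in the light zone to 9.22 and 6.13 in the dense zone. Eif4a3, a relative in the exon junction complex that acts on splicing and decay rather than on initiation, showed the largest rise of all members. It had 13.9 to 32.6 TPM (median 20.1) in the light and 133 to 250 TPM (median 184) in the dense libraries (3.11 ± 0.26, adjusted p = 0.000462, limma), 11.2 and 6.65 times in the 2 gradients. The scaffolds Eif4g1 and Eif4g3 were higher by 1.08 ± 0.16 and 1.12 ± 0.17 (adjusted p = 0.00217 and 0.00255, limma). Eif4g2, a shorter relative that lacks the eIF4E site and drives cap-independent initiation, was lower (−2.24 ± 0.21, adjusted p = 0.000558, limma), with 230 to 380 TPM (median 293) in the light and 43.8 to 77.1 TPM (median 63.2) in the dense libraries. Eif4g2 over Eif4g1 TPM went from 1.66 and 1.60 to 0.144 and 0.212.

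The helicase cofactors Eif4b and Eif4h, which stimulate eIF4A, also separated. Eif4b had 170 to 665 TPM (median 397) in the light and 93.9 to 121 TPM (median 107) in the dense libraries (−1.76 ± 0.16, adjusted p = 0.000596, limma). Eif4h was higher by 0.66 ± 0.18 (adjusted p = 0.0208, limma), a call that was lost under quantile normalization, with gradient 2 shifted by −1, without either light zone and without the dense zone of gradient 1. Eif4e, the cap-binding protein itself, was not called (−0.42 ± 0.20, adjusted p = 0.108, limma), and its relatives Eif4e2 and Eif4e3 were lower (−0.55 and −1.79, and −0.14 relative to the median gene for Eif4e2), the call for Eif4e2 being lost whichever zone mean was left out, under quantile normalization and with gradient 2 shifted by +1. Eif4e3 was scarce, with 2.40 to 7.39 TPM in the light and 0 to 1.37 TPM in the dense libraries, near the floor of the scale. Of the 3 eIF4E-binding repressors, Eif4ebp2, at chr10:61428491-61452790, had 346 to 1020 TPM (median 691) in the light and 48.8 to 68.2 TPM (median 56.7) in the dense libraries. Its fall was second to that of Tpt1 among the members tested (−3.48 ± 0.16, adjusted p = 0.000307, limma). Eif4ebp1 peaked at fraction 10 and Eif4ebp3 at fraction 11 in both gradients, and both were higher in the middle than in the light zone (1.24 ± 0.21 and 1.89 ± 0.44, adjusted p = 0.00567 and 0.0165, limma). The call for Eif4ebp3 was lost with zones 5 to 8, 9 to 12 and 15 to 18, without the light zone of gradient 1 and without the middle zone of gradient 2. Neither was called between dense and light.

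Some mRNAs were highest between the ends of the gradient. Of the 64 members 9 (14.1%) were higher in the middle than in the light zone and lower again in the dense than in the middle zone, an order that 6.42% of all genes had. They were Eif1ax, Eif5a, Eif2d, Eif2b5, Eif2ak4, Eif4ebp1, Eef1akmt1, and also Eif1ad and Eef1e1, which share the naming but are respectively a relative of eIF1A and a scaffold protein of the tRNA synthetase complex. The calls for Eif1ad, Eif2ak4 and Eif2b5 from the middle to the dense zone were lost whichever zone mean was left out, and so was the call for Eif2ak4 from the light to the middle zone, which was also lost without the 50 most abundant genes, with zones 5 to 8, 9 to 12 and 15 to 18 and with either shift of gradient 2. From the middle to the dense zone, the call for Eif1ax was lost under quantile normalization and without the dense zone of gradient 1. That for Eif5a was lost without the dense zone of gradient 2. Both were lost with zones 5 to 8, 9 to 12 and 15 to 18 and with gradient 2 shifted by +1. Without either middle zone all 9 lost this call. Eif1ax, the scanning factor eIF1A, had 27.5 to 62.7 TPM (median 47.0) in the light, 113 to 185 TPM (median 157) in the middle and 68.8 to 106 TPM (median 79.8) in the dense libraries. Its middle libraries were above all light and dense ones. Eef1akmt1, a methyltransferase of eEF1A, differed by 1.65 ± 0.25 from light to middle (adjusted p = 0.00429, limma) and by −1.66 ± 0.25 from middle to dense (adjusted p = 0.00871, limma). For Eef1akmt1, Eef1e1 and Eif2d the difference of dense from light had opposite signs in the 2 gradients and was not called (−0.02, −0.12 and 0.05). Eef1akmt1 had 2.73 to 20.3 TPM (median 6.14) in the light, 16.2 to 30.6 TPM (median 22.1) in the middle and 1.04 to 8.95 TPM (median 7.72) in the dense libraries. Eef1e1 had 6.02 to 13.4 TPM (median 8.55) in the light, 21.0 to 30.4 TPM (median 26.1) in the middle and 6.04 to 9.80 TPM (median 8.17) in the dense libraries. Eif2d had 17.5 to 55.9 TPM (median 32.4) in the light, 61.5 to 82.8 TPM (median 71.8) in the middle and 26.2 to 41.0 TPM (median 33.2) in the dense libraries. In all 3 the light and dense libraries overlapped. Eif1, the start codon gatekeeper eIF1, peaked at fractions 8 and 9 and was lower in the dense zone (−1.15 ± 0.20, adjusted p = 0.00418, limma). Eif5b, the subunit-joining GTPase, and Eif6, which keeps large subunits from joining early, were higher in the dense zone by 1.05 ± 0.22 and 2.20 ± 0.30 (adjusted p = 0.0082 and 0.00182, limma), and the call for Eif5b was lost without the light zone of gradient 1. Eif6 had 16.5 to 50.4 TPM (median 25.3) in the light and 74.5 to 188 TPM (median 132) in the dense libraries.

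**Figure D5:**
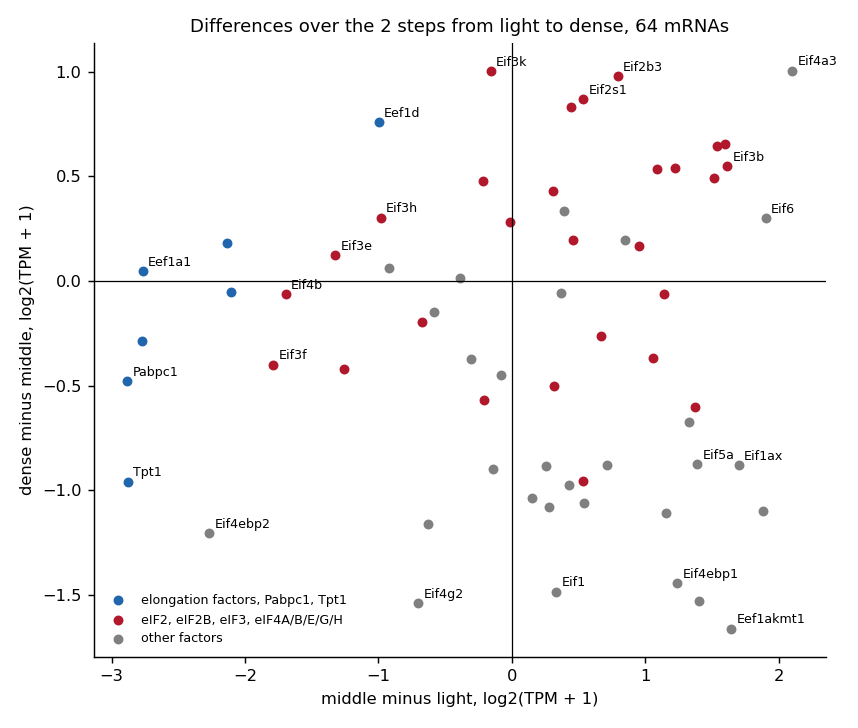
Difference between the middle and light zones against that between the dense and middle zones on the log2(TPM + 1) scale, for 64 mRNAs as means of both gradients. Pabpc1, Tpt1, Eif4ebp2 and the elongation factors other than Eef1d lie furthest to the left, initiation complex mRNAs are spread widely with Eif3b and Eif3c to the upper right, and Eif5a, Eif1ax and Eef1akmt1 lie to the lower right.

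Members known as TOP mRNAs were compared with the others. The list of 11 (Eef1a1, Eef1b2, Eef1d, Eef1g, Eef2, Eif3e, Eif3f, Eif3h, Eif4b, Pabpc1 and Tpt1) was drawn from general knowledge, and is no independent evidence of its direction. It was chosen with earlier results of these data known, and it holds all 6 mRNAs of the elongation set, so its values repeat theirs in part. Of these 11, 6 had a start in the table used and 4 of the 6 held the run, and unlisted members such as Eif3k and Eif3l held one too. Between the dense and light zones 10 of the 11 were lower and Eef1d was not called, and between the middle and light zones all 11 were lower, with a median of −2.10, where 23.5% of all genes were lower. Of the other 53 members, 23 were higher and 13 lower in the dense than in the light zone, with a median of 0.27, beside 22.4% higher and 39.0% lower among all genes. The 7 initiation complex mRNAs that were lower in the dense zone included 4 of this list, and Eif2s3x, Eif4a2 and Eif3j2 were the other 3. The TOP list members had a median pairwise R of 0.95 in both gradients. Cytosolic ribosomal protein mRNAs had a median center of 8.81 and 8.82, and 78 of 81 were lower in the dense than in the light zone (median −2.53), beside centers of 8.51 and 8.82 for the elongation set. In the step from the middle to the dense zone 37 of 81 were lower, and Tpt1 alone of the 11, where 22.7% of all genes were lower.

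Other mRNAs of the translation machinery stood elsewhere. Aminoacyl-tRNA synthetase mRNAs, whose products supply the substrate of eEF1A, had a median center of 14.57 and 14.27, and 20 of 22 were higher in the dense than in the light zone and none was lower (median 2.26), where 22.4% of all genes were higher and 39.0% lower. Mitochondrial translation factors had 8 of 10 higher and none lower (median 1.04). A list of 38 other cytosolic translation genes, with members in ribosome recycling, poly(A) binding, quality control and the mTOR pathway, had 14 higher and 12 lower (36.8% and 31.6%), with a median of −0.11, or 0.30 relative to the median gene. Coding length had a weak relation to the center across the 64 members, with Spearman's rho of 0.10 and 0.13, against 0.12 and 0.11 over 10745 genes with a coding length. Median coding lengths of the called members were 1233 bases for those higher and 1311 bases for those lower in the dense zone.

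Position was similar in both gradients for most members. The SD of the center between gradients had a median of 0.242 fractions, and the Pearson's R of the 17 shared fractions had a median of 0.933, with 43 of 65 over 0.9 and the lowest, 0.575, for Eif2ak3, the ER stress kinase PERK, at a mean TPM of 3.49. In 17 members every light library was above every dense library, as in 28.7% of all tested genes, and in 15 every dense library was above every light one, as in 17.0% of tested genes. Near-identical copies limit some values. Over 20% of the 31-base words of the longest coding transcript recur in other GENCODE genes, mostly outside the 2 tables, for 17 of 65 members, among them Eif3j2 (94.9%), Eef1a1 (72.3%), Eef1g (68.0%), Eif4a1 (67.5%), Eif4a3 (44.8%) and Tpt1 (42.9%). The authors counted with Kallisto, but which of these copies its index held is not stated. How such reads were divided is therefore unknown here, and these levels are uncertain to that extent.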

How the data were processed

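Libraries of RNA depleted of ribosomal RNA were made from the fractions of 2 gradients, which the study calls independent biological replicates. The number of mice is not given in the sources used here. Per the labels, reads were converted with bcl2fastq 2.16.0.10 and quantified with Kallisto, and per the study's methods they were pseudo-aligned to RefSeq transcripts of mm10. The authors deposited TPM per gene symbol and kept genes that exceeded 1 TPM in any fraction. The Kallisto version and how transcripts were summed to genes are not given in the sources used here. TPM holds no counts, so depth and counting error are unknown, and p-values measure only the spread between gradients.

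Members and gene lists were chosen with earlier results of these data known. Zones were fitted with limma 3.58.1 (R 4.3.3, lmFit and eBayes with trend) on 6 zone means of log2(TPM + 1), with Benjamini-Hochberg adjustment and a threshold of 0.05. On this scale the differences of scarce mRNAs come out too small. The zones of a gradient come from 1 homogenate, which pairs them (deviations of the gradients correlated across genes with r = 0.665, 0.541 and 0.800 between zones), so the gradient was also fitted as a replicate block. The limma step was run on simulated data whose zone means were drawn independently. That run lacked the pairing of zones and cannot show how the fit behaves with it. Alternatives were the pseudocount, filters on TPM, scaling, zone borders, shifts of fraction numbers and leaving out each gradient. Named in full were the elongation factors, Pabpc1, Tpt1, Etf1 and Gspt1, the 5 largest rises and falls among called members whose mean TPM reached 10 and whose direction was shared by both gradients, the extremes of each complex and members whose direction differed between gradients. Other members were named by role, and the windows shown were chosen after their values were seen. Start windows came from RefSeq tables of GRCm38.p6, with a start used for 48 members, and coding lengths and shared words from GENCODE M21 on the same assembly as mm10. Chromosome 18 was left out of the sequences. Python 3.11.15, NumPy 2.4.6, pandas 2.3.3 and Matplotlib 3.10.9 were used. Proteins and isoforms were not analysed here.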

Additional observations from a re-analysis of the deposited data

How the results depend on the processing

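No member called as reported changed sign in any alternative run. Between the dense and light zones, 39 to 46 of the 46 calls held under the 10 other settings and 35 to 44 with 1 gradient's zone mean left out, where the lone sample was assumed to vary like the other zones. Between the middle and light zones 34 to 41 of 41 calls held, and 27 to 39 with a zone mean left out. Between the dense and middle zones 19 to 29 of 29 held, and 0 to 20 with a zone mean left out. With the replicate block, 26 members were higher and 29 lower in the dense than in the light zone (30.8% and 49.5% of all genes in the same fit), 33 and 18 in the middle than in the light zone (37.5% and 34.4%), and 14 and 29 in the dense than in the middle zone (14.3% and 39.5%), and it ended no call. The count of members higher in the dense than in the middle zone was 8 and became 13 with zones 5 to 8, 9 to 12 and 15 to 18, and 2 with gradient 2 shifted by −1. The count of lower ones was 21 and became 13 under quantile normalization, and the causes were not tested. With 1 zone mean left out the higher count ran from 0 to 6 and the lower count from 0 to 16 in this comparison. Without either middle zone mean limma called 0 members and 0 genes after adjustment, while at an unadjusted p under 0.05 it gave 8 members higher and 19 lower without gradient 1 and 5 and 19 without gradient 2, of 64 members, where 28.9% and 29.9% of all genes passed in either direction. The count higher in the middle than in the light zone was 25, and ran from 15 to 23 with a zone mean left out, with 15 without the light and 16 without the middle zone of gradient 1. The dense minus light median of elongation factors and Pabpc1 was −2.61 under quantile normalization, −2.84 with zones 5 to 6, 11 to 12 and 17 to 18, and −2.23 with gradient 2 shifted by +1. It ran from −2.62 to −2.26 with a zone mean left out. The median of the initiation complexes was 0.62, 0.88 and 0.53 under quantile normalization and with gradient 2 shifted by +1 and −1, and ran from 0.58 to 0.81 with a zone mean left out. Uncalled dense minus light differences that changed sign were those of Eef1akmt1 (0.52 under quantile normalization, 0.23 with gradient 2 shifted by +1, and −0.30 to 0.27 with a zone mean left out), Eef1e1 (0.33 under quantile normalization and −0.31 to 0.063 with a zone mean left out) and Eif2d (−0.23 with zones 5 to 8, −0.27 with gradient 2 shifted by −1, and −0.061 to 0.16 with a zone mean left out). The difference in center between the elongation and initiation sets ran from −4.44 to −3.86 with a gradient left out and from −4.41 to −4.14 under the other alternatives. TPM gives no depth, so how far counting error limits the low members could not be assessed.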

Other observations

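Fractions 20 to 24 and fraction 3 were sequenced in gradient 2 without a partner in gradient 1, apart from fraction 21, and entered no zone. In fractions 20 to 24 the mean TPM of 49 of 65 members was below that of fractions 16 to 19, with a median log2 ratio of −0.25 over tested members and −0.11 over all tested genes. Tpt1 stood at 329 TPM after 524 TPM in fractions 16 to 19 (log2 ratio −0.67), while Pabpc1 stood at 66.2 and 64.7 TPM and Eef2 at 759 and 692 TPM. Eif3c stood at 348 TPM after 285 TPM and Eif2b3, the γ subunit of eIF2B, at 22.4 TPM after 16.2 TPM. The largest ratio was that of Eif3a, the scaffold subunit of eIF3, at 0.63. In fraction 3, Tpt1 was at 6232 TPM and Eif3f at 201 TPM, which is 2.46 and 1.57 times their means over gradient 2. Eef1b2, Eef1a1, Eef1g and Eef1d were at 2.33, 1.33, 1.27 and 1.23 times theirs. Pabpc1, at 204 TPM, and Eef2, at 592 TPM, were at 0.898 and 0.469 times theirs. These values come from 1 gradient and have no replicate check.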
